A study of Mus musculus with 24 samples.

Results

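The caspases examined here were Casp1, Casp2, Casp4, Casp6, Casp8, Casp9 and Casp12, taken as the rows of the deposited count table that carry these symbols. All 7 were found among the 17696 genes listed. The libraries came from MIN6, a mouse insulinoma line that serves as a β cell model. MIN6 cells had been transduced with lentiviral vectors carrying a scrambled sequence (Scr), an inhibitor of miR-146a-5p (ZIP) or miR-146a-5p itself (OE). All 3 lines were selected in puromycin (1 µg/ml, 7 days) and were grown from single picked clones, with ZIP and OE clones kept by their miR-146a-5p level. The lines are thus clonal, so a difference between lines cannot be told apart from a difference between clones. The OE vector was also of another make, with a red reporter where Scr and ZIP carried a green one. A difference between OE and Scr thus cannot be told apart from a difference between vectors either. Each line was sequenced without cytokines and after 24 h in 5 ng/ml IL1β, 100 ng/ml IFNγ and 10 ng/ml TNFα (Scr+Cy, ZIP+Cy and OE+Cy), with 4 libraries in each of the 6 groups. By PCR, the paper reports miR-146a-5p as higher in untreated OE than in Scr cells and as unchanged in untreated ZIP cells. It also reports a rise with cytokines in all 3 lines, by far the largest in Scr cells and the smallest in ZIP cells.

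Caspases are cysteine proteases that cleave after aspartate and are made as inactive precursors. Inflammatory caspases process cytokine precursors and the pore-forming protein gasdermin D. Initiator caspases are activated on assembly platforms at death receptors, at mitochondria-derived cytochrome c or in the nucleus, and they in turn cleave effector caspases, which dismantle the cell. In β cells exposed to proinflammatory cytokines, caspase activation is a known route to death. Transcript levels say nothing about whether the protease is cleaved or active.

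The microRNA that defines the lines is shown with its seed (bases 2 to 8) in capitals, because the usual target site is the matching letters AGTTCTC in a 3′ untranslated region. It lies at chr11:43374435-43374456 on the minus strand (RefSeq, GRCm38.p6).
mmu-miR-146a-5p: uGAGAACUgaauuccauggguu
None of the 7 caspases held these letters in the 3′ untranslated region of its longest RefSeq-matched coding transcript in GENCODE M21. Across 19318 genes with such a region, 10.3% held them, and the regions searched ran from 91 bases in Casp1 to 2292 bases in Casp9. The absence of these letters bears on this 1 type of site only.

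The promoters of Casp1, Casp4 and Casp12 are shown because these genes rose together with cytokines and lie side by side. Each window runs from 250 bases before the annotated start to 50 bases after it on the plus strand (RefSeq, GRCm38.p6), at chr9:5298267-5298566 for Casp1, chr9:5308599-5308898 for Casp4 and chr9:5345226-5345525 for Casp12. Capitals mark matches, on either strand, to an NF-kB motif (GGG, any 3 bases, TTCC) or to the GAS motif, the interferon-gamma activated sequence (TTC, any 3 bases, GAA). The interferon response element was searched as GAAA, any 2 bases, GAAA. No match overlapped another.
Casp1: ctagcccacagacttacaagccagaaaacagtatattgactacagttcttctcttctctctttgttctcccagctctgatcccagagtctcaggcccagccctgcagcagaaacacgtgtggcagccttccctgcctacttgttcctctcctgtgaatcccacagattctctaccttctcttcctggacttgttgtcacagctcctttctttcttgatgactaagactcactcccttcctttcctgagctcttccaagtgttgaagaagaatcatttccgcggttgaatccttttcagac
Casp4: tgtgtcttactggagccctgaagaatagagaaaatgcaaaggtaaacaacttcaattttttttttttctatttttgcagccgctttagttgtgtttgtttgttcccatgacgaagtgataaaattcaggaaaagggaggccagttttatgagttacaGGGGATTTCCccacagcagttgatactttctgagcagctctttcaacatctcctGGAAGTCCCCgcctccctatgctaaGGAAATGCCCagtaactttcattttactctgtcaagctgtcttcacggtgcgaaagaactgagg
Casp12: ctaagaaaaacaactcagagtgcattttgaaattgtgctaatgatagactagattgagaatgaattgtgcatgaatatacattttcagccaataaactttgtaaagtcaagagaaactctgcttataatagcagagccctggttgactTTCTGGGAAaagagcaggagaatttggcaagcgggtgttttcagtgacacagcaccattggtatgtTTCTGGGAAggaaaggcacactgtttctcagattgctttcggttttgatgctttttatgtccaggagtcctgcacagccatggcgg
The Casp4 window held 3 matches to the NF-kB letters, which start 93, 39 and 14 bases before the start site, whereas 5.52% of 27025 genes held at least 1. The Casp12 window held 2 matches to the GAS letters, 102 and 36 bases before the start site, and 8.47% of genes held at least 1. No caspase window held the interferon response letters, which 3.49% of genes held, and Casp1 held none of the motifs. The windows of Casp8, Casp9, Casp2 and Casp6 held none of them either. For Casp8 the window was chr1:58802252-58802551, which lies inside the gene as listed (chr1:58795374-58847503). The listed start of Casp8 was therefore not searched. These matches describe letters and were not tested for binding.

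Libraries held 26657792 to 37168232 assigned reads. Levels are given as CPM, the reads of a gene per 1000000 reads of the TMM-scaled library, in order of replicate number, and a gene was called when it differed at least 1.5-fold with p under 0.05 in edgeR's quasi-likelihood test. Each SE was derived from that test, as the size of the log2 fold change over the square root of its F statistic. It is not the error of the fitted coefficient, so SE values of different comparisons need not combine. In each group 9 or 10 of 10 beta cell markers were at or above 1 CPM in all libraries. ZIP replicate 1 and Scr+Cy replicate 1 carried fibroblast transcripts, with the 6 fibroblast markers summing to 46.3 and 47.9 CPM against at most 15.1 CPM in any other library. ZIP replicate 4 had the highest Nos2 (3.49 CPM) and Cxcl10 (31.1 CPM) of the untreated libraries. Nos2, Cxcl10, Irf1 and Nfkbia rose with cytokines in all 3 lines, so every line responded.

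Levels of different genes were compared per kilobase of transcript. Casp2 (13.3 ± 0.83 CPM per kb, SD, n = 4), Casp9 (6.81 ± 0.405) and Casp8 (5.04 ± 0.491) were the most abundant in Scr cells. Casp6 was lower at 1.07 ± 0.0464 CPM per kb. Casp1 (0.192), Casp4 (0.0526) and Casp12 (0) were nearly silent. In Scr+Cy cells Casp1 reached 16.4 ± 3.72 CPM per kb, beside 17 ± 0.985 for Casp2. In ZIP+Cy cells Casp1 was at 20.8 ± 5.14 CPM per kb, above Casp2 at 14.1 ± 0.836. In OE+Cy cells Casp4 reached 21.8 ± 5.56 CPM per kb, beside 23.2 ± 2.14 for Casp2. From near the bottom of the order, Casp1 thus came near or above Casp2 in Scr+Cy and ZIP+Cy cells, and Casp4 came near it in OE+Cy cells. Casp1 was lower than Casp2 in OE+Cy cells (15.1 ± 4.26 CPM per kb). Casp4 was lower than Casp2 in Scr+Cy (5.03 ± 1.13) and ZIP+Cy cells (10.9 ± 3.58). Casp12 stayed low (0.647 ± 0.379 CPM per kb in OE+Cy cells).

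The largest changes were in the inflammatory caspases, which sit in tandem on chromosome 9 on the plus strand (mm10), Casp1 at chr9:5298517-5307281, Casp4 at chr9:5308849-5336791 and Casp12 at chr9:5345476-5373034. Only 1567 bases separate Casp1 from Casp4 and 8684 bases separate Casp4 from Casp12, and no other listed gene lies within 250 kb of the 3. Their reference transcripts shared no stretch of 31 bases with one another or with the other members, so reads of that length or longer could not match 2 of them exactly.

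Casp1, which cleaves the precursors of IL1β and gasdermin D, was measured at 0.216, 0.374, 0.313 and 0.248 CPM in Scr cells and at 17.7, 27, 30.7 and 23.1 CPM in Scr+Cy cells. Every cytokine library was far above every untreated one. The log2 fold change was 6.40 (SE 0.34, adjusted p = 3.85e-13). In ZIP cells Casp1 was 0.329, 0.219, 0.868 and 1.08 CPM, and in ZIP+Cy cells it was 22.3, 27.9, 39.9 and 34.6 CPM (log2 fold change 5.60, SE 0.31, adjusted p = 7e-13). In OE cells it was 0.0907, 0.136, 0.11 and 0.295 CPM, and in OE+Cy cells it was 14.3, 22, 29.5 and 24.9 CPM (log2 fold change 7.17, SE 0.38, adjusted p = 1.4e-13). These folds rest on few untreated reads per library, 8 to 13 in Scr, 6 to 32 in ZIP and 3 to 9 in OE cells. Replicate 1 was the lowest library of each cytokine group. Under cytokines the lines overlapped, and Casp1 differed from Scr+Cy by 0.34 in ZIP+Cy (SE 0.21, adjusted p = 0.247) and by -0.11 in OE+Cy (SE 0.21, adjusted p = 0.675) on the log2 scale. Casp1 passed the thresholds in ZIP against Scr cells (log2 fold change 1.15, SE 0.54, edgeR adjusted p = 0.124), but the groups overlapped. That call was lost without Scr replicate 1, 3 or 4 or without ZIP replicate 3 or 4, with values down to 0.77 without ZIP replicate 4.

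Casp4, the caspase of the noncanonical inflammasome that senses bacterial lipopolysaccharide in the cytosol, differed between the lines under cytokines. It had 1 to 6 reads per library in Scr cells (mean 0.0754 CPM) and reached 6.22, 8.61, 8.58 and 5.44 CPM in Scr+Cy cells. In ZIP+Cy cells it was 9.04, 14.1, 20.6 and 18.6 CPM. In OE+Cy cells it was 21.9, 29.2, 41.1 and 32.7 CPM. The 3 cytokine groups did not overlap, with OE+Cy above ZIP+Cy and ZIP+Cy above Scr+Cy. Casp4 was 4.34-fold higher in OE+Cy than in Scr+Cy cells (log2 fold change 2.12, SE 0.31, adjusted p = 3.61e-06). It was 2.16-fold higher in ZIP+Cy than in Scr+Cy cells (log2 fold change 1.11, SE 0.31, adjusted p = 0.00879), and DESeq2 gave a like size (1.12) but did not call it. Both comparisons used the same Scr+Cy libraries. The cytokine response itself was 6.54 (SE 0.60) in Scr, 6.16 (SE 0.50) in ZIP and 7.84 (SE 0.51) in OE cells on the log2 scale, and the difference between the OE and Scr responses was 1.30 (SE 1.43, adjusted p = 0.585), with 0 to 10 reads in each untreated Scr and OE library behind it. In the ZIP line, 23 untreated reads were in replicate 4, the library with the high Nos2 and Cxcl10, against 0 to 1 in each other ZIP library, and whether the state of that library had a part in its reads was not tested.

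Casp12, a caspase linked to the endoplasmic reticulum, was the rarest. It had no read in any Scr library, which allows up to 0.0885 CPM on a floor of 3 reads per library. In Scr+Cy cells it had 8, 15, 19 and 18 reads, at least 5.53-fold higher than Scr. In OE cells only replicate 3 had reads (2), and OE+Cy cells had 17, 40, 94 and 64 reads, at least 19.4-fold higher. In ZIP cells all 15 reads were in replicate 1, the library with fibroblast transcripts, and ZIP+Cy cells had 19, 33, 34 and 36 reads. The call of Casp12 in ZIP against Scr cells rested on that library alone. With every ZIP library included, ZIP+Cy was 7.88-fold higher than ZIP (log2 fold change 2.98, SE 0.83, edgeR adjusted p = 0.0102). Against the ZIP libraries other than replicate 1, all at 0, ZIP+Cy was at least 10.4-fold higher. The part that the fibroblast transcripts had in these reads was not tested. Under cytokines Casp12 was 0.489 ± 0.172 CPM in Scr+Cy cells, 1.07 ± 0.279 CPM in ZIP+Cy cells and 1.71 ± 1 CPM in OE+Cy cells (SD, n = 4). OE+Cy exceeded Scr+Cy by 1.81 on the log2 scale (SE 0.70, adjusted p = 0.0354) although the libraries overlapped, and the call was lost without OE+Cy replicate 3 (1.42). In ZIP+Cy cells the difference from Scr+Cy was 1.12 (SE 0.71, adjusted p = 0.261).

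**Figure D1:**
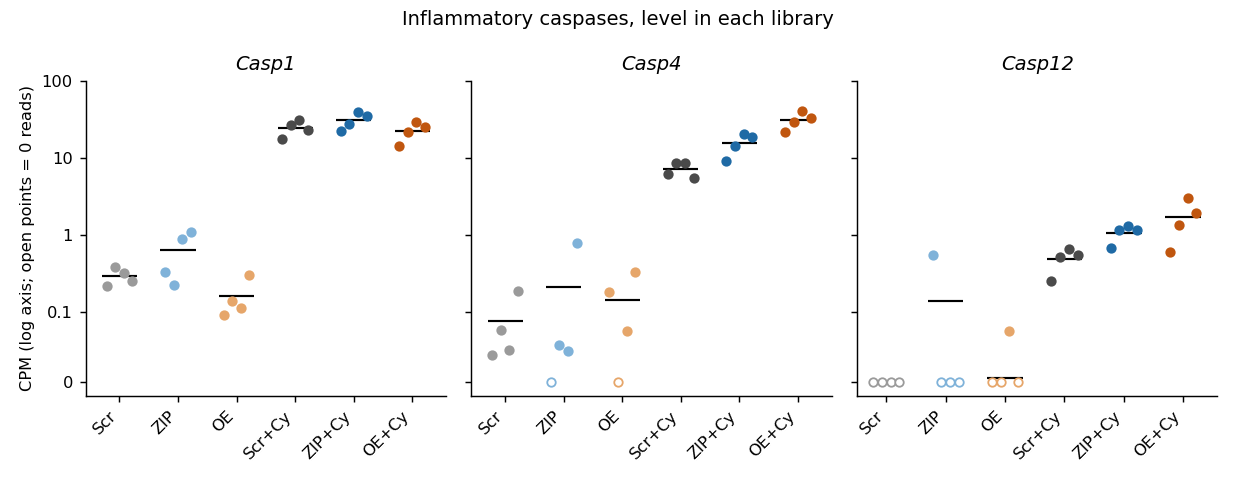
Level of Casp1, Casp4 and Casp12 in each of the 24 libraries (CPM on a log axis, with open points at the bottom for libraries with 0 reads and a line at each group mean). The cytokine libraries of Casp1 and Casp4 lie above every untreated library, and only Casp4 has 3 cytokine groups that do not overlap.

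The balance between the neighbouring genes was also compared within each library, which needs no scaling between libraries. In Scr+Cy cells there were 0.352, 0.319, 0.279 and 0.236 Casp4 reads for each Casp1 read. In ZIP+Cy cells the ratio was 0.405, 0.505, 0.516 and 0.537. In OE+Cy cells it was 1.54, 1.32, 1.39 and 1.31, so of the cytokine groups only OE+Cy had more Casp4 than Casp1 reads. The ratio of Casp12 to Casp1 reads was 0.0194 ± 0.00406 in Scr+Cy cells, 0.0342 ± 0.00473 in ZIP+Cy cells and 0.0703 ± 0.0251 in OE+Cy cells (SD, n = 4). The ratio of Casp12 to Casp4 overlapped across the groups, at 0.0688 ± 0.0253, 0.07 ± 0.00877 and 0.0513 ± 0.0193 in the same order. These ratios were examined after the levels had been seen and carry no test.

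**Figure D2:**
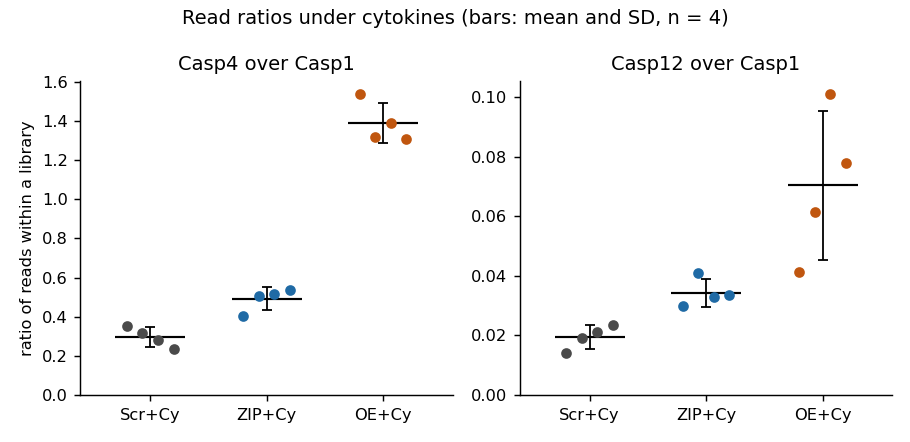
Reads of Casp4 (left) and of Casp12 (right) for each read of Casp1 in the 4 libraries of each cytokine group, with the mean and SD. The Casp4 ratio spans 1.31 to 1.54 in OE+Cy cells and 0.236 to 0.352 in Scr+Cy cells.

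Macrophages also express these caspases, so their markers were examined beside them. Of 8 markers 7 were listed. Without Mpeg1 they summed to 0.651 to 4.81 CPM in untreated libraries and to 0.996 to 3.97 CPM in cytokine libraries. Ptprc, which marks all leukocytes, was at 0 in 12 of 24 libraries and at most 0.422 CPM, and Csf1r was at 0 in 11. Cd68 was present in every library, at 0.558 to 4.38 CPM, and Lyz2 and Itgam reached 1.72 and 1.17 CPM. The highest Ptprc and Lyz2 values were both in ZIP+Cy replicate 3. That library also had the highest Casp1 (39.9 CPM) and Casp4 (20.6 CPM) of the ZIP+Cy group. Mpeg1 itself went from at most 1.21 CPM in untreated libraries to between 6.47 and 30.8 CPM in cytokine libraries. Krt19, a duct marker, was at 0 in every Scr and ZIP library with or without cytokines, and it was between 12.4 and 24.2 CPM in every OE and OE+Cy library, while the duct and acinar markers Sox9 and Cela1 were at 0 there. Of 4 endothelial markers 2 were listed, Pecam1 and Tek. Pecam1 had means of 0.0868, 0.162 and 0.949 CPM in Scr, ZIP and OE cells and 0.699, 0.97 and 2.34 CPM with cytokines. Tek had means of 0.0503, 0.193 and 0.0789 CPM in the same untreated groups, highest in ZIP cells, and 0.121, 0.208 and 0.416 CPM with cytokines. The part of these markers in the caspase differences was not tested. In bulk RNA, fewer or more cells of a type and less or more RNA per cell cannot be told apart.

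Among the initiators, Casp8 separated the lines whether or not cytokines were present. Casp8 is the initiator of death receptor signalling, which also restrains necroptosis, and lies at chr1:58795374-58847503. It was 11.5, 13.8, 12.5 and 14.3 CPM in Scr cells. It was 4.72, 6.31, 7.1 and 6.42 CPM in ZIP cells. It was 29.3, 24.2, 26.7 and 28 CPM in OE cells. These groups did not overlap. Casp8 was 2.12-fold lower in ZIP than in Scr cells (log2 fold change -1.08, SE 0.10, adjusted p = 5.65e-09) and 2.07-fold higher in OE than in Scr cells (log2 fold change 1.05, SE 0.09, adjusted p = 6.49e-10), both against the same Scr libraries.

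With cytokines Casp8 rose to 17.4, 17.5, 20.2 and 17.6 CPM in Scr+Cy cells, a 1.39-fold difference below the limit of 1.5 (log2 fold change 0.48, SE 0.09, adjusted p = 0.00042). It rose to 13.8, 13.5, 15.3 and 14.2 CPM in ZIP+Cy cells, 2.31-fold over ZIP (log2 fold change 1.21, SE 0.10, adjusted p = 9.43e-10). It reached 36, 35.8, 39.8 and 39.5 CPM in OE+Cy cells, 1.4-fold over OE (log2 fold change 0.48, SE 0.09, adjusted p = 6.36e-05). The ZIP response exceeded the Scr response by 0.73 on the log2 scale (SE 0.13, adjusted p = 0.0291), where 0.0509% of all genes were higher by the same test. That call was lost in 8 of 16 fits without 1 library, although the difference stayed between 0.63 and 0.82, and without ZIP replicates 1 and 4 together it was 0.61 and not called. The OE response differed from the Scr response by 0.01 (SE 0.13, adjusted p = 1). Under cytokines OE+Cy cells still stood 2.08-fold over Scr+Cy cells (log2 fold change 1.06, SE 0.09, adjusted p = 4.44e-10), and ZIP+Cy cells stood 1.28-fold under them (log2 fold change -0.36, SE 0.09, adjusted p = 0.00463).

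Casp9, the initiator of the mitochondrial route that is activated on the Apaf1 apoptosome and lies at chr4:141793612-141815978, was lower in the untreated OE line. It was 28.4, 24.8, 25.8 and 27.2 CPM in Scr cells and 14.5, 16.9, 16.5 and 16 CPM in OE cells, with no overlap (log2 fold change -0.73, SE 0.09, adjusted p = 4.23e-07). With cytokines it was 20.4, 22.6, 26 and 20.7 CPM in OE+Cy cells and 24.4, 21.5, 26.4 and 25.4 CPM in Scr+Cy cells, and these groups overlapped (log2 fold change -0.13, SE 0.09, adjusted p = 0.262). The cytokine response was therefore higher in OE (0.49, SE 0.09) than in Scr cells (-0.12, SE 0.09), by 0.61 on the log2 scale (SE 0.13, adjusted p = 0.00181), where 9.64% of all genes were higher by the same test. In ZIP cells Casp9 was 23.7, 22.5, 25.2 and 17.9 CPM without cytokines and 21.8, 22.2, 21.8 and 19.5 CPM with them (log2 fold change -0.07, SE 0.09, adjusted p = 0.662).

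Casp2, the caspase of the PIDDosome that responds to DNA damage and extra centrosomes, lies at chr6:42264985-42282508. It was 44.5, 44.3, 49.8 and 49.1 CPM in Scr cells and 55.8, 62.1, 63.5 and 58.6 CPM in Scr+Cy cells (log2 fold change 0.35, SE 0.09, adjusted p = 0.00553). It was 30.6, 33.6, 40.8 and 33.6 CPM in ZIP cells and 47.1, 47.9, 53.7 and 50 CPM in ZIP+Cy cells (log2 fold change 0.52, SE 0.09, adjusted p = 0.000102). It was 44.2, 53.1, 59.5 and 56.7 CPM in OE cells and 71.6, 81.6, 89.5 and 84.6 CPM in OE+Cy cells (log2 fold change 0.62, SE 0.09, adjusted p = 2.95e-06). Every cytokine group lay wholly above its untreated group, but the fold limit was passed in the OE line and not in the others. It was not passed there without OE replicate 1 (0.54) or OE+Cy replicate 3 (0.56), and it was passed in the ZIP line without ZIP replicate 3 (0.60). ZIP cells lay wholly below Scr cells (log2 fold change -0.44, SE 0.09, adjusted p = 0.000548), under the fold limit. OE+Cy cells exceeded Scr+Cy cells by 0.45 (SE 0.09, adjusted p = 0.000127).

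Casp6, an effector caspase that cleaves nuclear lamins, lies at chr3:129901415-129914112 and had 41 to 99 reads per library. It was 1.65, 1.58, 1.5 and 1.52 CPM in Scr cells and 2.37, 2.07, 2.37 and 2.28 CPM in Scr+Cy cells (log2 fold change 0.54, SE 0.17, adjusted p = 0.0303). It was 1.76, 1.57, 1.27 and 2.08 CPM in ZIP cells and 2.72, 1.94, 2.53 and 2.68 CPM in ZIP+Cy cells, which overlapped (log2 fold change 0.56, SE 0.17, adjusted p = 0.0173). It was 1.36, 1.66, 2.23 and 1.6 CPM in OE cells and 2.5, 2.3, 3.13 and 2.22 CPM in OE+Cy cells, which overlapped at 1 pair of values (log2 fold change 0.56, SE 0.17, adjusted p = 0.009). All 3 responses had a fold under 1.5 with every library included. The limit was passed in ZIP without ZIP replicate 1 (0.59) or 4 (0.69) or ZIP+Cy replicate 2 (0.66), and in OE without OE replicate 3 (0.72) or OE+Cy replicate 2 (0.59) or 4 (0.61). The lines did not differ detectably, with log2 differences from Scr of 0.09 in ZIP (SE 0.18) and 0.14 in OE cells (SE 0.17).

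**Figure D3:**
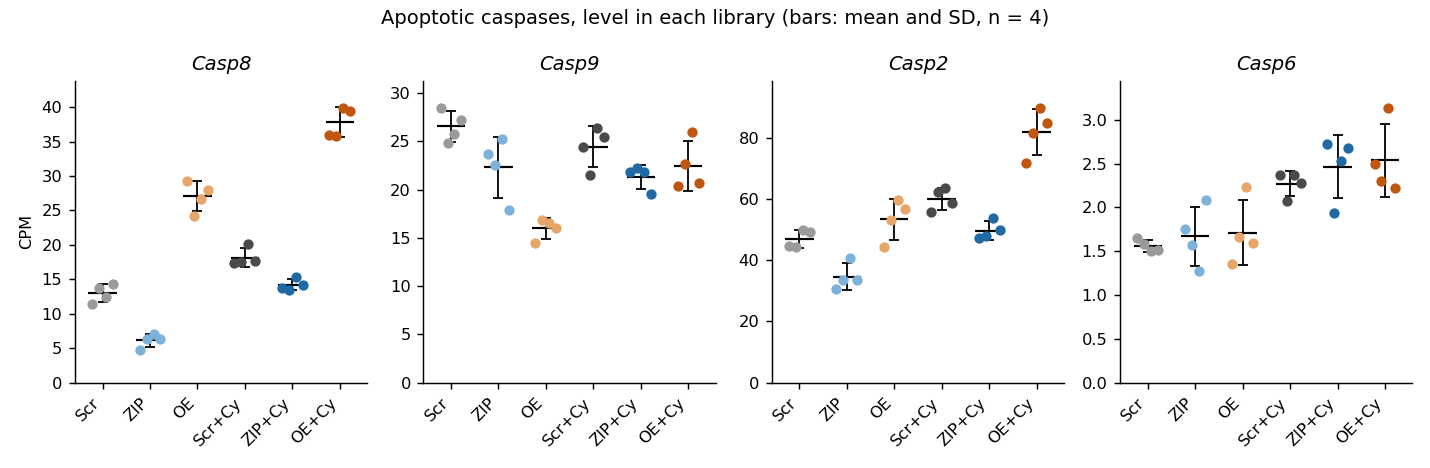
Level of Casp8, Casp9, Casp2 and Casp6 in each library (CPM, axes from 0), with the mean and SD of each group. Casp8 is ordered ZIP, Scr, OE without cytokines and ZIP+Cy, Scr+Cy, OE+Cy with them, and Casp9 is lowest in OE cells.

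Counted over the 7 genes, cytokines raised 3 in Scr cells (Casp1, Casp4 and Casp12), where 7.88% of all genes were called higher. They raised 4 in ZIP cells, these with Casp8, where 7.28% of all genes were called higher, and 4 in OE cells, these with Casp2, where 13% were. None was called lower. Without the fold limit, at an adjusted p under 0.05, 6 changed in Scr+Cy against Scr cells (17.8% of all genes) and 7 in OE+Cy against OE cells (44.6%). The libraries of 6, 5 and 6 members did not overlap in Scr, ZIP and OE cells, beside 21.2%, 26.2% and 40.2% of all genes.

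Between untreated lines, Casp1 and Casp12 were called higher (7.97% of all genes) and Casp8 lower (6.91%) in ZIP against Scr cells. In OE against Scr cells Casp8 was called higher (11.3%) and Casp9 lower (14.4%). The libraries of 2 members did not overlap in each comparison (27.2% of all genes for ZIP and 46.5% for OE). Between cytokine groups, Casp4 alone was called higher in ZIP+Cy against Scr+Cy cells (7.1%), with 3 members past adjusted p under 0.05 without a fold limit (28.1%). Casp4, Casp12 and Casp8 were called higher in OE+Cy against Scr+Cy cells (13.7%). The libraries of 4 and 3 members did not overlap (27.6% and 46.2% of all genes). The share of members that separated OE from Scr libraries, with or without cytokines, was no larger than that of all genes.

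Against untreated Scr cells, Casp1, Casp4, Casp12 and Casp6 were called higher in ZIP+Cy cells (12.2% of all genes), and all members but Casp9 were called higher in OE+Cy cells (18.4%). The libraries of 5 and 6 members did not overlap there (37.2% and 51.7%). The median log2 fold change of the 7 was 0.54 in Scr+Cy against Scr, 1.21 in ZIP+Cy against ZIP and 0.62 in OE+Cy against OE cells, while the median of all genes was 0.00, -0.01 and 0.02. Each median of the 7 is the value of a single gene, Casp6 in Scr, Casp8 in ZIP and Casp2 in OE cells. The medians therefore do not rank the lines by response.

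**Figure D4:**
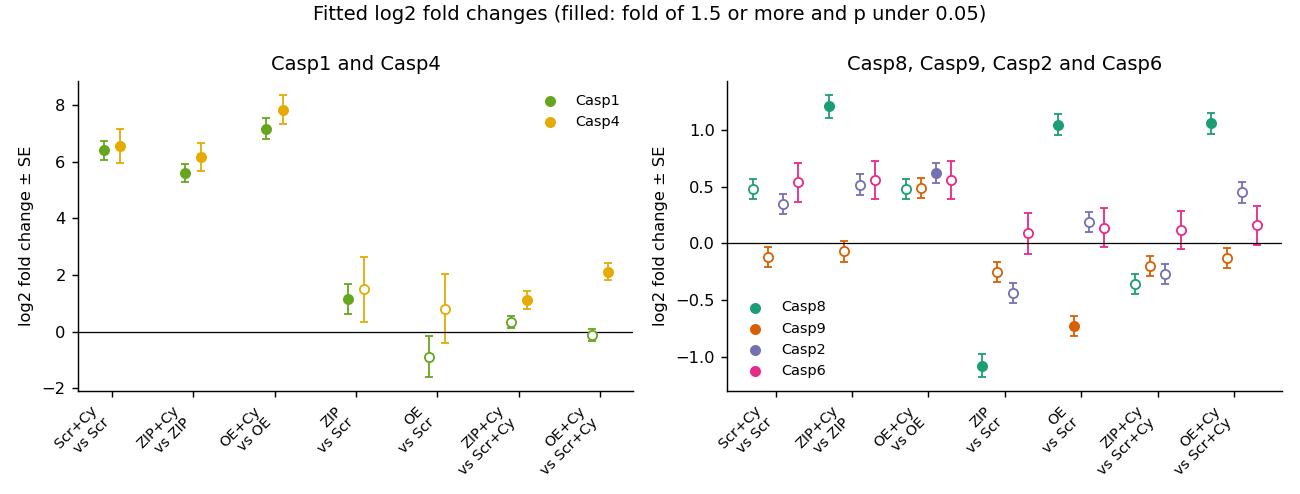
Fitted log2 fold changes with SE for Casp1 and Casp4 (left) and for Casp8, Casp9, Casp2 and Casp6 (right, on a narrower axis) in 7 comparisons, with filled points for called genes. Casp12 is left out because in 4 of these comparisons at least 1 of its groups lay at or under the floor. Casp8 lies at -1.08 in ZIP and at 1.05 in OE against Scr cells.

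The partners of the inflammatory caspases moved unevenly. Of 16 inflammasome and pyroptosis genes 11 were listed, and cytokines raised 4 in the Scr line, 2 in the ZIP line and 7 in the OE line, with none lower, where 7.88%, 7.28% and 13% of all genes were called higher. Of the 7, Nlrp3 and Nlrp6 had at most 7 and 4 reads per OE+Cy library, and their groups overlapped. Of the genes called in Scr+Cy against Scr cells, Gsdmd, the substrate that forms the pore, rose most (log2 fold change 2.64, SE 0.13, adjusted p = 1.4e-13). Naip2, a sensor of bacterial secretion, rose least of them (0.68, SE 0.12). Gsdmd rose by 2.85 in ZIP+Cy against ZIP (SE 0.16) and by 4.09 in OE+Cy against OE cells (SE 0.15). The level of Gsdmd depended on the line, at 7.16 ± 0.687 CPM in Scr, 1.84 ± 0.514 in ZIP and 1.96 ± 0.279 in OE cells, and at 44.7 ± 6.29, 13.4 ± 1.29 and 33.5 ± 5.64 CPM with cytokines. In OE against Scr cells 1 of the 11 was higher and 3 were lower, beside 11.3% and 14.4% of all genes. The higher one was Pycard, the adaptor that brings Casp1 to the sensors, at 0.135, 0.259, 0.188 and 0.0929 CPM in Scr and 3.69, 3.54, 3.45 and 3.5 CPM in OE cells (log2 fold change 4.36, SE 0.26, adjusted p = 9.82e-13). Pycard was also higher in ZIP than in Scr cells (log2 fold change 2.56, SE 0.29, adjusted p = 1.63e-07). The largest fall was that of Il1b, a substrate of Casp1 (log2 fold change -2.12, SE 0.21, adjusted p = 9.08e-09), which was higher in ZIP than in Scr cells (0.67, SE 0.18, adjusted p = 0.00676).

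Of 12 genes of the death receptor complexes 11 were listed, and cytokines raised 8 in the Scr line, 5 in the ZIP line and 7 in the OE line, with none lower. The share of all genes called higher was 7.88%, 7.28% and 13% in the same order. The largest change was in Tnfsf10, the ligand TRAIL, at 6.08 in Scr (SE 0.34), 5.85 in ZIP (SE 0.32) and 6.26 in OE cells (SE 0.32) on the log2 scale. Traf2, an adaptor of the TNF receptor, had the smallest change of those called in Scr+Cy cells, 0.61 (SE 0.09), and Ripk1 the smallest in OE+Cy cells, 0.64 (SE 0.04). Fas, a receptor upstream of Casp8, had no read in Scr or ZIP cells and 5 reads in 1 OE library, and it reached 20 to 69 reads in OE+Cy cells against 3 to 17 in Scr+Cy cells (log2 fold change 2.43, SE 0.65, adjusted p = 0.00431). Fadd, the adaptor that recruits Casp8, ranged over group means from 22 to 24.5 CPM and was called in none of the comparisons. Cflar, the inactive relative that holds Casp8 back and lies next to it on chromosome 1, was called in Scr+Cy against Scr cells (log2 fold change 0.71, SE 0.09, adjusted p = 1.03e-06) and not in ZIP+Cy against ZIP (0.52) or OE+Cy against OE cells (0.17). In OE against Scr cells 2 genes of the list were called higher, Tnfsf10 (1.32, SE 0.35) and Fas, whose reads lay in 1 library, and 3 were called lower, of which Fasl had reads at or under the floor. There 11.3% of all genes were called higher and 14.4% lower.

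The apoptosome genes around Casp9 were counted next. Of 10 genes, all listed, 1 rose in each line with cytokines, namely Birc3, an inhibitor of apoptosis and a known NF-kB target, at 3.52 in Scr (SE 0.18), 3.97 in ZIP (SE 0.20) and 4.56 in OE cells (SE 0.18) on the log2 scale. The share of all genes called higher was 7.88%, 7.28% and 13% in these lines. Birc5 fell by 0.79 in OE+Cy against OE cells (SE 0.09). In ZIP against Scr cells 3 of the 10 were lower, Birc2 (log2 fold change -0.80, SE 0.08), Birc3 (-0.65, SE 0.24) and Septin4 (-1.17, SE 0.17), where 6.91% of all genes were called lower. In OE against Scr cells 1 of the 10 was called, Septin4, which was lower (log2 fold change -1.75, SE 0.17), where 14.4% of all genes were called lower. Apaf1, the platform of Casp9, was 32.7 CPM in Scr, 40.8 in OE, 42.8 in Scr+Cy and 52.3 in OE+Cy cells and was not called in OE against Scr cells (0.32). Neither gene of the PIDDosome, Pidd1 and Cradd, was called in any pairwise comparison.

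Effector substrates and inhibitors were described the same way. With cytokines, 7.88%, 7.28% and 13% of all genes were called higher in the Scr, ZIP and OE lines. Of 11 substrates, all listed, 1 rose in each line with cytokines and this was Bid, which Casp8 cleaves to link death receptors to mitochondria. Bid was 4.77 ± 0.497 CPM in Scr, 4.12 ± 0.363 in ZIP and 2.98 ± 0.627 in OE cells and 16.4 ± 2.05, 26.6 ± 4.63 and 53.9 ± 7.33 CPM with cytokines (SD, n = 4), and it was 1.72 higher in OE+Cy than in Scr+Cy cells on the log2 scale (SE 0.12, adjusted p = 2.84e-11). In OE against Scr cells, where 14.4% of all genes were called lower, 2 substrates were lower, Dffb, the caspase-activated DNase (log2 fold change -1.11, SE 0.09), and Bid (-0.67, SE 0.15). Of 5 serpins and calpain genes 2 rose in every line, Serpinb9, an inhibitor of granzyme B, most (2.52 in Scr, SE 0.10, and 4.38 in OE cells, SE 0.12) and Capn1 least (0.75 in both, SE 0.06). Serpinb9 was lower in OE than in Scr cells (log2 fold change -1.89, SE 0.13).

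**Figure D5:**
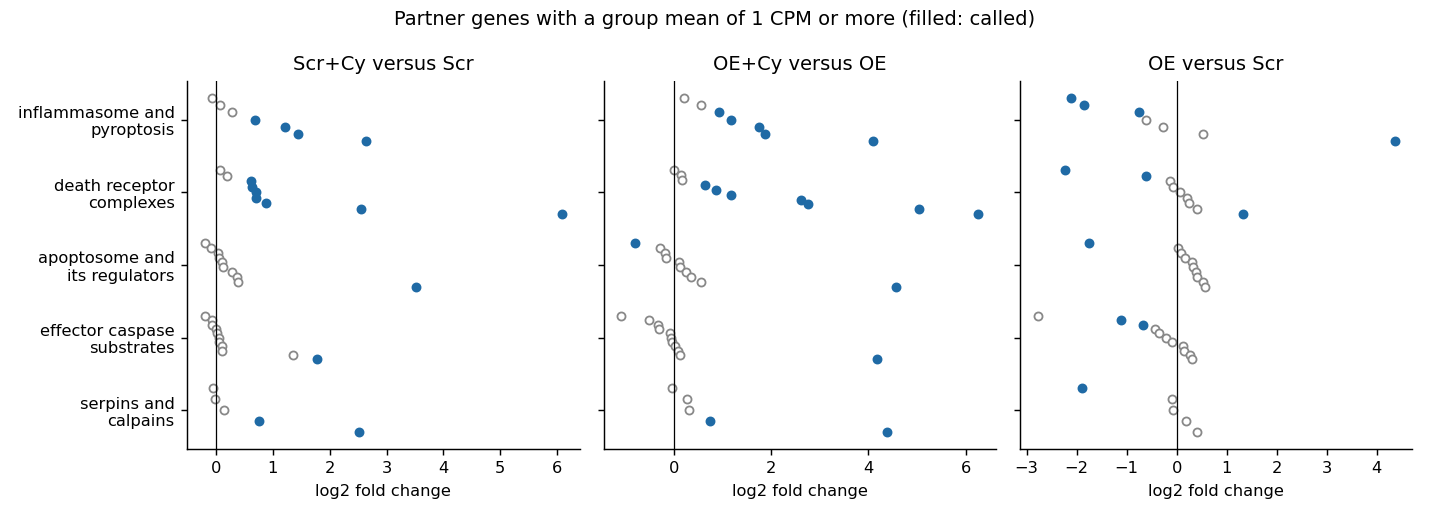
Log2 fold changes of the partner genes that reach a mean of 1 CPM in at least 1 group, by list, in Scr+Cy against Scr, OE+Cy against OE and OE against Scr cells, with filled points for called genes and without genes whose fold is a lower bound. Points called higher with cytokines lie mostly in the inflammasome and death receptor lists, and in OE against Scr cells Pycard stands apart at 4.36.

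Genes on the same stretch of chromosome were counted as well. Of 7 listed neighbours of Casp8 within 250 kb, none was called in OE+Cy against Scr+Cy cells and 1 in OE against Scr cells. The same rule called 5052 and 4540 of all 17696 genes in these comparisons. Of 12 neighbours of Casp9, 2 were higher and 1 was lower in OE against Scr cells, beside 11.3% and 14.4% of all genes. Of 6 neighbours of Casp2, cytokines raised 2 in the Scr line, 2 in the ZIP line and 4 in the OE line, and of 7 neighbours of Casp6, 1, 1 and 2 rose. The share of all genes called higher was 7.88%, 7.28% and 13% in the same order of lines. In ZIP against Scr cells 1 neighbour of Casp8, 2 of Casp2 and 1 of Casp6 were lower (6.91% of all genes). There 1 of Casp9 was higher (7.97%). In OE against Scr cells 2 neighbours of Casp2 and 1 of Casp6 were higher, and 3 and 2 were lower. In ZIP+Cy against Scr+Cy cells 3 neighbours of Casp2 were lower and none was higher, where the rule called 2791 of all genes.

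The genes most like each caspase were found by the root-mean-square difference of centred log2 CPM over the 24 libraries. For Casp1 these were H2-T23 (0.46), Uba7 (0.509) and B2m (0.526). For Casp4 they were Ifi211 (0.551), Cfb (0.594) and AW112010 (0.661). Both sets were small next to the spread of the caspase itself, 3.16 for Casp1 and 3.48 for Casp4 on the same scale. For Casp12 they were Pik3ip1 (0.627), Ifi27l2a (0.758) and Ripk2 (0.773), against a spread of 1.99. For Casp8 they included Pnma2 (0.288) and Ap1g2 (0.302), against a spread of 0.841. For Casp2 the nearest was Baz1a (0.0952, spread 0.392), for Casp9 it was Dab2ip (0.109, spread 0.256) and for Casp6 it was 4930453N24Rik (0.182, spread 0.334), so the last pair of profiles was matched less closely for its size.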

How the data were processed

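The mRNA of 24 MIN6 libraries (3 lines, with or without cytokines, 4 libraries each) had been sequenced. The authors aligned reads to mm10 with STAR, quantified RefSeq transcripts in Partek, removed genes under 10 reads in total and tested with DESeq2. The submitters' processing notes name STAR 2.7.8a and Partek 11.0.24.0204. The authors deposited estimated counts per gene, 30.1% of them not whole, and a normalized signal per gene from median ratio scaling, which entered no test. Whether the counting used strand is not given in the sources used here. End coordinates are given as inclusive, 1 base below the deposited value.

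Estimated counts were rounded and fitted in 1 edgeR 4.0.16 quasi-likelihood model of 6 group means (TMM, R 4.3.3, all 17696 genes), and p-values were adjusted by the Benjamini-Hochberg method over all genes. Calls used the study's thresholds (fold of 1.5, unadjusted p under 0.05), and differences between cytokine responses were called at adjusted p under 0.05 with no fold limit. The script was tested on simulated data of Scr+Cy against Scr cells, with changes only in genes over 1 CPM in Scr cells. That test did not cover changes in genes as low as untreated Casp1, Casp4 and Casp12, or differences between responses. Levels are CPM as mean ± SD, and groups whose libraries all had 3 reads or fewer gave lower bounds, which cover counting error only. The labels give replicates no separate origin beyond a number, so p-values measure the spread between these libraries.

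The caspases, partner lists and tests were chosen with earlier results of these data known. All 7 members were named. Some other listed genes are not reported here. Of the lists, the genes with the largest and smallest called changes and the direct partners were named. The most alike genes were searched among those with a mean of at least 1 CPM (log2 CPM, prior count of 2), and neighbours within 250 kb were counted. Same-numbered libraries deviated together over 10889 genes (correlations of 0.253 to 0.569 within lines, and 0.157 to 0.413 between ZIP+Cy and Scr+Cy), which pairs these libraries by number. In the other comparisons at least 1 pair was at 0.0436 or lower. Alternatives were DESeq2 1.42.0, its size factors, a filter on low counts, the replicate block, only the groups compared, other call rules and leaving out libraries.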

Additional observations from a re-analysis of the deposited data

Results flagged for a closer look

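Of 41 groups with any spread, 5 had a library far from the rest by Dixon's ratio. Chance alone flags about 1 in 20 groups of normally spread values. That rate does not hold where most libraries have 0 or 1 read, as for Casp4 in ZIP and Casp12 in ZIP and OE cells. Casp4 in ZIP replicate 4 was 0.773 CPM, with the next ZIP library at 0.0365 CPM, and the same library had 3.49 CPM of Nos2. Casp12 in ZIP replicate 1 was 0.549 CPM with the other ZIP libraries at 0, and the 6 fibroblast markers summed to 46.3 CPM there. Casp12 in OE replicate 3 was 0.0552 CPM, from 2 reads. Casp8 in Scr+Cy replicate 3 was 20.2 CPM, with the next library at 17.6 CPM. Casp9 in ZIP+Cy replicate 4 was 19.5 CPM, with the next library at 21.8 CPM.

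The cytokine responses of Casp8 and Casp9 differed between lines by a test of the difference itself. For Casp8 the ZIP response exceeded the Scr response by 0.73 on the log2 scale (edgeR, adjusted p = 0.0291), and for Casp9 the OE response exceeded the Scr response by 0.61 (adjusted p = 0.00181). The causes were not tested.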

How the results depend on the processing

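Of 76 log2 fold changes of the caspases, none that was called reversed. The direction of uncalled ones was not compared. Across 1105 refits, 1076 kept their side of the threshold, 19 lost and 10 gained a call. Counts of caspases called changed by more than 1.5 times as follows. At adjusted p under 0.05 with no fold limit the count was 6 in Scr+Cy against Scr, 7 in OE+Cy against OE and 3 in ZIP+Cy against Scr+Cy cells. DESeq2 called 0 in ZIP+Cy against Scr+Cy cells, where 2 (Casp8 and Casp2) had an unadjusted p under 0.05 with a fold under 1.5, and a fit of only these groups called 2, adding Casp12. Without ZIP replicates 1 and 4 together, an alternative chosen after seeing the data, 1 was called in ZIP against Scr cells and 0 in the ZIP difference of responses by edgeR, where Casp8 had an unadjusted p under 0.05. That difference gave 0 to 1 caspase when each library was left out. With replicate number as a block, the OE difference of responses held 2 caspases, adding Casp2 (0.27), and the block changed no other call of a caspase. Over all genes, the ZIP difference of responses held 10 genes, 41 with DESeq2 and 45 with the replicate block, and dropping the fold limit for adjusted p raised the counts from 1867 to 3151 in Scr+Cy against Scr, 2211 to 4674 in ZIP+Cy against ZIP, 3720 to 7884 in OE+Cy against OE, 2634 to 5013 in ZIP against Scr, 4540 to 8869 in OE against Scr, 2791 to 4966 in ZIP+Cy against Scr+Cy, 5052 to 9447 in OE+Cy against Scr+Cy, 3841 to 7212 in ZIP+Cy against Scr and 6051 to 10528 in OE+Cy against Scr cells. At 0 to 23 untreated reads per library, depth limits the folds of Casp4 and Casp12. It limits those of Casp1 as well, at 8 to 13 untreated reads in Scr, 6 to 32 in ZIP and 3 to 9 in OE libraries.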
